A study of Mus musculus with 6 samples.

Results

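Serum amyloid and related acute phase proteins were followed here in mouse liver through 10 genes, the serum amyloid A genes Saa1, Saa2, Saa3 and Saa4, the serum amyloid P component gene Apcs, the orosomucoid genes Orm1 and Orm2, haptoglobin (Hp), lipocalin 2 (Lcn2) and the inter-alpha-trypsin inhibitor heavy chain gene Itih4. Every probe to which the array's platform annotation gives such a symbol was taken, whatever its value, which gave 14 of the 25697 probes in the table and 10 of the 16593 genes they name. Hp and Itih4 had 3 probes each and the other 8 genes had 1. All 14 were detected on all 6 arrays and were tested among the 12893 probes detected on at least 3 arrays.

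Total RNA came from the whole livers of 6 wild-type C57BL/6 mice, 1 array per mouse, all on 1 slide of Illumina BeadChips, on which the brightness of beads reports bound RNA. The 3 mice of the Ad-Control group received Ad-Control, which the labels also call Ad-CMV, and the 3 of the Ad-MafG group received Ad-MafG. Livers were collected 5 days after treatment began, when the mice had been without food for 4 to 6 h. The dose, the route, the promoter of the Ad-MafG insert and the age and sex of the mice do not appear in the labels, and an untreated liver was not analysed here.

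MafG belongs to the small Maf family of leucine zipper proteins, which bind DNA in pairs, and its overexpression is named in the title of the series. The array's Mafg probe was lower in the livers labelled Ad-MafG. Its deposited signal was 1630.5, 1819 and 2027.1 in the Ad-Control livers and 1620.6, 1469.2 and 1534.8 in the livers labelled Ad-MafG, a log2 fold change of -0.54 (SE 0.12, limma adjusted p 0.0355), a call lost without any single array other than Ad-Control 2 (0.08 to 0.114) and with log2 of the deposited signals (-0.24, adjusted p 0.132). The labels do not say where in Mafg this probe lies or whether the insert holds that stretch, so the probe does not check the labels, on which every direction below rests.

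The acute phase response is the change in plasma proteins that hepatocytes make during infection or injury. Interleukin 6 acts through STAT3, and interleukin 1 through NF-kB and C/EBP factors, to switch on the positive acute phase genes, while negative acute phase proteins such as albumin and transthyretin are made less. Serum amyloid A proteins are apolipoproteins that travel on high density lipoprotein, and in mice Saa1 and Saa2 are among the most inducible genes of the liver. Saa3 is also made by macrophages and fat cells, and Saa4 is expressed constitutively. Serum amyloid P component is a pentraxin and the main acute phase pentraxin of the mouse.

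The sequence before the start of 4 of these genes is shown because Saa1 and Saa2 had the largest changes of the set, Itih4 changed with 3 probes, and Orm2 belongs to the same class without passing the test. Each is the 250 bases upstream of the start that RefSeq's promoter table uses, read 5′ to 3′ on the gene's strand from the mouse assembly GRCm38.p6. Capitals mark TTGCNNAA, a C/EBP motif, and TGCTGA, an arm of the palindromic Maf recognition element, which reads TCAGCA on the other strand; where both occur they do not overlap. Saa1 lies at chr7:46742981-46743230 on the minus strand, Saa2 at chr7:46751583-46751832 on the plus strand, Itih4 at chr14:30886226-30886475 on the plus strand and Orm2 at chr4:63362199-63362448 on the plus strand. For Saa1 that start lies inside the gene's outermost span in the same assembly, so its window overlaps the gene by 201 bases, and the window of Saa3, searched for motifs but not shown, lies inside its gene for all 250 bases. The other 6 windows overlap their gene by 0 bases.
Saa1: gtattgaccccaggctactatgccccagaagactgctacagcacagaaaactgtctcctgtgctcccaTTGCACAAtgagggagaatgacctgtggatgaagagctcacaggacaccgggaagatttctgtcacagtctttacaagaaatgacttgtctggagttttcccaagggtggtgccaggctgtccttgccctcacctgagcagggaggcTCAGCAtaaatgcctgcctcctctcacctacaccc
Saa2: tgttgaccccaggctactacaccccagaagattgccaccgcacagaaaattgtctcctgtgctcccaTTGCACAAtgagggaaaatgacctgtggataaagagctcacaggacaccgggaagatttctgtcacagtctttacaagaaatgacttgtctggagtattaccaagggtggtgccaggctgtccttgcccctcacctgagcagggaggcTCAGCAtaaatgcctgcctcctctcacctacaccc
Itih4: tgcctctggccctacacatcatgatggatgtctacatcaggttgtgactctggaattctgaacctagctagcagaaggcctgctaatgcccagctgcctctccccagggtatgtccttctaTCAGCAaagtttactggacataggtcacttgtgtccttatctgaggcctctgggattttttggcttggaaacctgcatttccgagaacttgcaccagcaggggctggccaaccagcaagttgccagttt
Orm2: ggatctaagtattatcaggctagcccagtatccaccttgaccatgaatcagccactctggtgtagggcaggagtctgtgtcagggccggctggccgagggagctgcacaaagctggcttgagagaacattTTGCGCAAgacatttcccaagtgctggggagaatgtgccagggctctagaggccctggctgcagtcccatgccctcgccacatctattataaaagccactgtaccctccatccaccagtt

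The Saa1 and Saa2 sequences were identical at 238 of 251 aligned positions, 94.8%, whereas Saa1 shared 48.2% with Saa3 and 42.3% with Saa4. In the gene table of that assembly the 4 genes stand on chromosome 7 in the order Saa3, Saa4, Saa1 and Saa2, with a serum amyloid A pseudogene between Saa4 and Saa1, and the table lists each of Saa1 and Saa2 as a synonym of the other. Orm1 and Orm2 stand together on chromosome 4, with Orm3 and a pseudogene between them. The C/EBP motif lay 182 to 175 bases before the start in Saa1, 183 to 176 in Saa2 and 120 to 113 in Orm2. The Maf motif lay 35 to 30 bases before the start in both Saa1 and Saa2 and 129 to 124 in Itih4.

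RefSeq held an upstream sequence for 8 of the 10 genes, and 5 motifs were searched on both strands in their 250 bases. TTGCNNAA was found in 6 of the 8 (Saa1, Saa2, Saa3, Saa4, Orm2 and Lcn2) and in 9.56% of the 32851 upstream windows of all genes. TGCTGA was found in 4 of the 8 (Saa1, Saa2, Saa3 and Itih4) and in 16.1% of all windows, and the STAT motif TTCNNNGAA in 2 (Apcs and Itih4) and in 7.02%. The antioxidant response element core TGACNNNGC was found in 0 of the 8 and in 10.2% of all windows, and an NF-kB motif, GGG and TTTCC with a pair of free bases between, in 0 of the 8 and in 1.41%. The part of these letters in any change described next was not tested. The Saa1 and Saa2 windows are near copies with the same matches, so those matches are not separate cases, and the Saa3 window lies inside its gene. A match is a run of letters, not a bound site.

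Of the 14 probes, 6 were lower and 0 higher in the livers labelled Ad-MafG, beside 3.99% of all 12893 probes lower and 5.91% higher (limma with Benjamini-Hochberg adjustment over all tested probes, threshold 0.05). The 6 probes belong to 4 genes, Saa1, Saa2, Apcs and Itih4. The genes were chosen with earlier results of these data known, so these shares describe the set and are not independent support. The median log2 fold change was -0.44 over the 14 probes and -0.03 over all tested probes, and 11 of the 14 were below 0. In 7 of the 14 probes, these 6 and Saa4, every Ad-MafG liver lay below every Ad-Control liver on the normalized scale, as in 18.7% of all tested probes (35.9% were apart in either direction). In 0 of the 14 did every Ad-MafG liver lie above, beside 17.3% of all. Of all called probes 59.7% were higher, a share that was 45.6% with median scaling and 93.9% with log2 of the deposited signals, which moved the median of all probes to 0.20. Folds are of normalized intensity, with background removed. In whole liver, fewer cells of a type and less RNA per cell cannot be told apart.

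**Figure D1:**
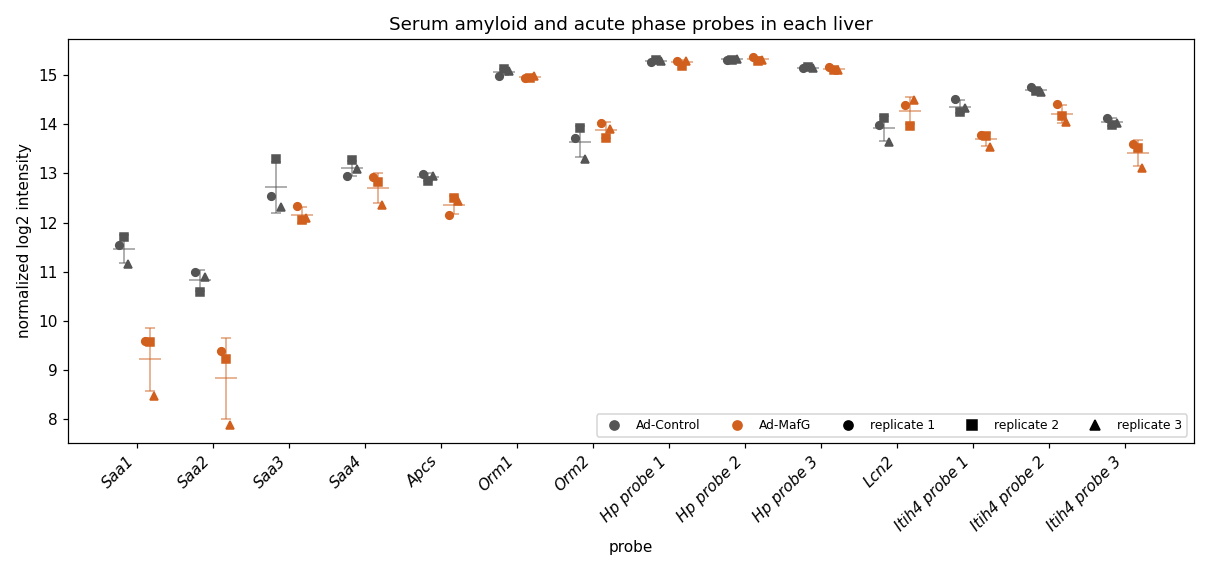
Normalized log2 intensity (y axis) of each of the 14 probes (x axis) in each liver, grey for Ad-Control and orange for Ad-MafG, with the marker shape giving the replicate number. Crossbars and error bars are the mean ± SD of 3 livers; the groups stand apart for Saa1, from 11.47 ± 0.28 to 9.22 ± 0.64, and overlap for Hp.

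Saa1 was 4.75-fold lower in the livers labelled Ad-MafG. Its deposited signal was 2640.9, 3529.8 and 2206.4 in the Ad-Control livers and 1013.4, 955.1 and 542.2 in the Ad-MafG livers. The groups did not overlap, and Ad-MafG 3 was the lowest. The normalized log2 intensity was 11.47 ± 0.28 (SD, n = 3) against 9.22 ± 0.64 (SD, n = 3). The log2 fold change was -2.25 (SE 0.31, 95% interval -2.98 to -1.52, limma adjusted p 0.0123), and 3 of the 12893 tested probes had a lower fold change. Saa1 passed the threshold in all 18 alternative settings run, with log2 fold changes between -2.46 and -1.76.

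Saa2, its neighbour and close copy, was 3.99-fold lower. The signal was 1805.7, 1679.8 and 1843.9 in the Ad-Control livers and 900.9, 785.2 and 405.8 in the Ad-MafG livers, again without overlap and again lowest in Ad-MafG 3. The 3 Ad-Control livers lay closer together in signal than they did for Saa1. The log2 fold change was -2.0 (SE 0.37, 95% interval -2.87 to -1.13, limma adjusted p 0.0252). The call was lost without Ad-Control 1 (limma adjusted p 0.0685), Ad-Control 3 (0.0715), Ad-MafG 1 (0.0501) or Ad-MafG 2 (0.053), with log2 fold changes between -2.28 and -1.53 over the 6 fits that leave out an array. The probe sequences were not used here, so how far the Saa1 and Saa2 probes also bind the other gene's RNA was not tested.

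Saa3 did not pass the test. Its signal was 5247.1, 10513 and 4837.4 in the Ad-Control livers and 5669, 4664.1 and 4797.9 in the Ad-MafG livers. Ad-Control 2 stood far above the other livers, and the remaining livers of both groups overlapped. The log2 fold change was -0.56 (SE 0.25, 95% interval -1.14 to 0.02, limma adjusted p 0.18). Without Ad-Control 2 it was -0.27.

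Saa4, the constitutive member, did not pass either. The signal was 7164.1, 10078.2 and 8520.7 in the Ad-Control livers and 8263.3, 7684.5 and 5754.1 in the Ad-MafG livers, and these signals overlap. After normalization the 3 Ad-MafG livers lay just below the lowest Ad-Control liver, at 13.10 ± 0.16 against 12.70 ± 0.30 (SD, n = 3 each). The log2 fold change was -0.40 (SE 0.17, limma adjusted p 0.168).

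Saa1 and Saa2 were then set against each other member by the difference of their log2 values within each liver, in 25 pairs of probes tested with a two-sided exact permutation test of 3 livers against 3. Saa1 and Saa2 differed from each other by -0.25 in their change (exact p = 0.6). In each of the other 24 pairs the Ad-MafG livers all lay below the Ad-Control livers, which gives an exact p of 0.1, the smallest this test allows for 3 livers against 3, and 0.104 after adjustment over the 25 pairs. Relative to Saa3 the log2 change of Saa1 was -1.69 and relative to Saa4 it was -1.85, and the values against the other genes ran from -1.58 for an Itih4 probe to -2.61 for Lcn2. For Saa2 they ran from -1.33 to -2.36. This test cannot bring any of these pairs below 0.05, so it does not show whether the changes were unequal.

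Apcs, the serum amyloid P component, was 1.48-fold lower. Its signal was 7324.7, 7562.5 and 7742.5 in the Ad-Control livers and 5022.4, 6236 and 6081.3 in the Ad-MafG livers. The groups were apart, with Ad-MafG 1 the lowest, not Ad-MafG 3 as for Saa1 and Saa2. The log2 fold change was -0.57 (SE 0.12, 95% interval -0.86 to -0.27, limma adjusted p 0.0365). The call held without Ad-Control 2 and was lost without any other single array, with adjusted p between 0.0649 and 0.1. Its log2 fold change was -0.93 when arrays were scaled to a common median instead of quantile normalized.

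Itih4 encodes a heavy chain of the inter-alpha-trypsin inhibitor family, a liver protein cleaved by plasma kallikrein, and its 3 probes were lower by 1.59-fold (ILMN_2627022), 1.40-fold (ILMN_2718431) and 1.55-fold (ILMN_2797276). For the first the signal was 22457.5, 19765.9 and 20847.5 in the Ad-Control livers and 14662, 14477.5 and 12106.3 in the Ad-MafG livers. For the second it was 26768.1, 26907.9 and 25600.9 against 21806.7, 19233.6 and 16855. For the third it was 17174.8, 16618 and 16571 against 13043.1, 12602.3 and 9360.1. On each probe the groups were apart and Ad-MafG 3 was the lowest liver. The log2 fold changes were -0.67 (SE 0.12, limma adjusted p 0.0245), -0.49 (SE 0.12, 0.0489) and -0.63 (SE 0.15, 0.0415), and the 3 probes share 1 gene and are not separate evidence.

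The Itih4 calls lay near the threshold. Leaving out an array kept the call of 1 of the 3 probes in 1 of 6 cases (ILMN_2627022 without Ad-Control 2), and otherwise gave adjusted p of 0.0508 to 0.141, with log2 fold changes between -0.74 and -0.41. Without the detection filter ILMN_2718431 and ILMN_2797276 were at 0.0627 and 0.0607, and ILMN_2718431 was at 0.055 with array weights (limma adjusted p). With median scaling the 3 log2 fold changes were -1.21, -1.06 and -1.12.

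**Figure D2:**
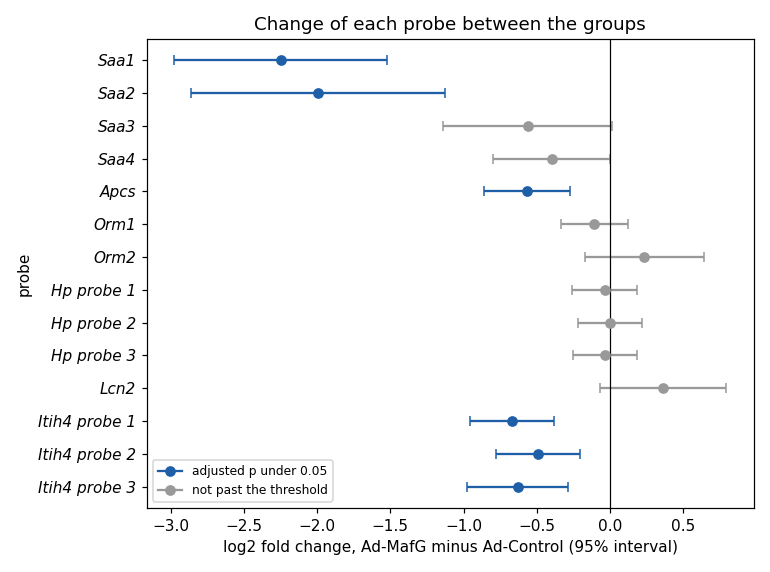
Log2 fold change of each probe, Ad-MafG minus Ad-Control (x axis), with its 95% interval as a horizontal bar; blue probes passed the adjusted p threshold of 0.05 and grey ones did not. Saa1 at -2.25 and Saa2 at -2.0 lie apart from the 4 other blue probes, at -0.67 to -0.49, and the 8 grey intervals reach 0.

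Orosomucoids, haptoglobin and lipocalin 2 did not pass the test. Orm1 and Orm2 encode alpha-1-acid glycoproteins, which carry lipophilic molecules in plasma. Orm1 gave 31023.6, 36507.3 and 33949.4 in the Ad-Control livers and 32038.3, 32824.7 and 32659.8 in the Ad-MafG livers. Its log2 fold change was -0.11 with a 95% interval of -0.33 to 0.12 (limma adjusted p 0.501). Orm2 gave 12479.3, 15978 and 9985.5 against 17134.8, 14278.1 and 15484.4, with a log2 fold change of 0.24, an interval of -0.17 to 0.65 and a limma adjusted p of 0.405. Both genes overlapped between the groups. Orm1, Orm2 and Orm3 are closely related, and the Orm3 probe was not detected on any array.

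Haptoglobin binds free haemoglobin and hands it to the receptor CD163. Its first probe (ILMN_2668509) gave 39735.9, 40883.1 and 41028.9 in the Ad-Control livers and 39297.7, 38226.5 and 39178.9 in the Ad-MafG livers. The second (ILMN_2668510) gave 40184.9, 40973.5 and 42434.1 against 41318.2, 41096.9 and 39649.1. The third (ILMN_2944824) gave 35494.2, 37634.7 and 35004.4 against 37085.7, 36429.7 and 35070.4. The 3 log2 fold changes were -0.03, 0.00 and -0.03, with 95% intervals that together span -0.26 to 0.22. These probes ranked between the 2nd and the 27th brightest of the 25697 on every array, where the highest signals were 41525.2 to 44377.3, and whether the scanner limits them was not tested.

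Lipocalin 2 binds iron-carrying siderophores and is made by hepatocytes and by neutrophils. Its signal was 15419.7, 18089.2 and 12521.5 in the Ad-Control livers and 21338.1, 16610.4 and 22994.4 in the Ad-MafG livers. The groups overlapped through Ad-MafG 2, and the log2 fold change was 0.36 (SE 0.18, 95% interval -0.07 to 0.79, limma adjusted p 0.234). It was the highest of the 14 probes.

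The values of these bright probes depended on the scaling, and so did the direction of Orm2, Lcn2 and the second Hp probe. With median scaling Orm1 was at -0.68, the Hp probes at -0.69, -0.65 and -0.62, Orm2 at -0.26 and Lcn2 at -0.17, and Orm1 and the 3 Hp probes then passed the threshold as lower. The 500 brightest tested probes, which include these 6 and the 3 of Itih4, had a median log2 fold change of 0.02 as reported and -0.51 with median scaling, when 40.4% of them were called lower. In the authors' scaled values that median was -0.18, with Orm1 at -0.31 and the Hp probes at -0.32, -0.28 and -0.25. Saa3 at -0.87 and Saa4 at -0.79 also passed with median scaling. Saa1, Saa2, Apcs and the Itih4 probes were below 0 in every setting run.

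**Figure D3:**
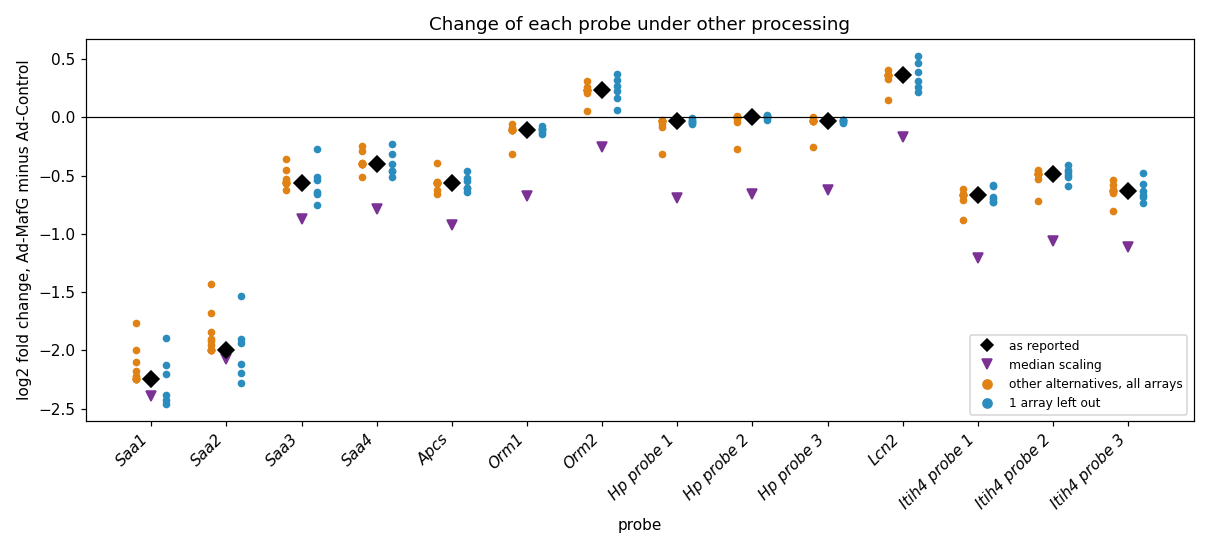
Log2 fold change, Ad-MafG minus Ad-Control (y axis), of each probe (x axis) as reported (black diamonds), with median scaling (purple triangles), under the other settings with all arrays (orange) and with 1 array left out (blue). Saa1 ran between -2.46 and -1.76, whereas Orm2, Lcn2 and the second Hp probe changed sign with median scaling.

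The authors' deposited table, which holds group means of scaled intensity and a score whose sign gives the direction, listed Saa1 at 2829 in the control mean, 623.4 in the Ad-MafG mean and a score of -77.1. In the authors' deposited table Saa2 had 1774.6 and 497.9 with -70.9, and Apcs 7954.4 and 5054.1 with -43.5. The authors' deposited table gave Saa3 a score of -3.15, Saa4 -16.6, and the 3 Itih4 probes -30.8, -41.0 and -31.9. It listed Orm1, which did not pass the test here, at -34.7. The Hp probes, which did not pass either, it listed at -18.3, -11.9 and -12.8. It gave Orm2 0.179 and Lcn2 0.277, the positive ones among the 14. The labels do not say how that score was computed.

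The livers of a group did not keep 1 order over the members. On the normalized scale Ad-Control 2 was the highest Ad-Control liver for 8 of the 14 probes, which were Saa1, Saa3, Saa4, Orm1, Orm2, Lcn2 and 2 of Hp, and Ad-Control 1 was the highest for 5. In the Ad-MafG group, Ad-MafG 1 was the highest for 11 probes. Ad-MafG 3 was the lowest for 6, which were Saa1, Saa2, Saa4 and the 3 of Itih4. Ad-MafG 2 was the lowest for 6 others, level with Ad-MafG 3 on 1 Hp probe (ILMN_2944824). On Orm1, Ad-MafG 1 and Ad-MafG 2 were level as the lowest.

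Likeness to Saa1 was measured as the root mean square difference over the 6 livers between log2 values centred on each probe's mean. Saa2 was the nearest of all tested probes, at 0.304. Outside the members the 5 nearest were Masp1 at 0.32, Dct at 0.414, Susd4 at 0.481, Sult5a1 at 0.499 and Sult2a8 at 0.51. Masp1, a serine protease of the lectin pathway of complement, gave 2127.5, 2896.4 and 2731.4 in the Ad-Control livers and 1039.7, 1202.8 and 716.1 in the Ad-MafG livers, a log2 fold change of -1.84 (limma adjusted p 0.0113). Susd4, which encodes a complement regulator, and the sulfotransferase gene Sult2a8 were at -1.41 (limma adjusted p 0.0237) and -1.32 (0.0327). Both calls were lost without Ad-Control 3, Ad-MafG 2 or Ad-MafG 3, that of Sult2a8 also without Ad-Control 1 or Ad-MafG 1, with adjusted p of 0.0507 to 0.0911. Susd4 was at -0.48 with log2 of the deposited signals. Dct at -1.46 (limma adjusted p 0.0505) and Sult5a1 at -2.01 (0.0638) did not pass the threshold, and all 5 were lowest in Ad-MafG 3. Sult5a1 was detected on 2 of the 3 Ad-MafG arrays, with a signal of 166.9 in Ad-MafG 3. Over the alternatives Dct ran from -1.71 to -0.65 and Sult5a1 from -2.56 to -0.95. Likeness was searched over 12893 probes on 6 arrays. The 5 genes were picked by likeness to Saa1 over these same livers. Their direction and their low values in Ad-MafG 3 follow from that choice and are not separate evidence.

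Other positive acute phase genes showed 1 lower gene of 18 tested, 0 higher and 17 that did not pass, with a median log2 fold change of -0.21. The lower gene was Mbl1, a mannose-binding lectin of the complement system, at -0.59 with an SE of 0.12 and a limma adjusted p of 0.0314; the call was lost without any single array other than Ad-Control 2, with adjusted p of 0.059 to 0.103, and with log2 of the deposited signals (-0.35, adjusted p 0.081). Serpina3n, the mouse relative of human alpha-1-antichymotrypsin, was at -0.39 (limma adjusted p 0.0616), the lipopolysaccharide-binding protein gene Lbp at -0.36 (0.107) and Itih3 at -0.59 (0.122). Among 27 genes listed, 5 were not analysed here, and Fgb, Orm3 and Pzp were not detected on any array.

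Negative acute phase genes included 1 higher and 1 lower of 11 tested, with a median of -0.07. Serpina7, thyroxine-binding globulin, was 2.48-fold higher, with signals of 1058, 1872.5 and 1328.2 in the Ad-Control livers and 3866.2, 3451.1 and 4186.1 in the Ad-MafG livers (limma adjusted p 0.011). Serpina6, corticosteroid-binding globulin, was 2.06-fold lower, with 3237.9, 2585.5 and 2436.4 against 1812.3, 1549.7 and 1534.2 (limma adjusted p 0.0207). The calls were lost for Serpina7 without Ad-MafG 3 (0.0507) and for Serpina6 without any Ad-MafG array (0.0602 to 0.0817). Igf1 at -0.73 (limma adjusted p 0.0703) and Rbp4 at -0.40 (0.107) did not pass. Ttr, Trf, Apoa1 and Ahsg, which did not pass either, ranked between the 2nd and the 39th brightest on every array. Whether the scanner limits them was not tested. The Alb probe, at -0.34 (limma adjusted p 0.477), gave signals of 196.2 to 245.1, near the array medians.

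Among acute phase cytokines and their receptors, 1 of 11 tested was lower and 0 were higher, with a median of -0.09. Il1rap, the accessory protein of the interleukin 1 receptor, was 1.87-fold lower, with signals of 5144.1, 5694.8 and 6071.8 in the Ad-Control livers and 3905.1, 3880.6 and 2823 in the Ad-MafG livers (limma adjusted p 0.0219). That call was lost without Ad-Control 1, Ad-Control 3, Ad-MafG 1 or Ad-MafG 3, with adjusted p of 0.051 to 0.0669. The interleukin 6 receptor genes Il6ra and Il6st were at -0.73 (limma adjusted p 0.0776) and -0.33 (0.0928), and Il1a was at 0.63 (0.0595). The probes of Il6, Lif, Il22 and Il1r2 were not detected on any array.

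Of 17 signalling and transcription factor genes tested, 1 was lower and 0 were higher, with a median of -0.15. The lower gene was Cish, a feedback inhibitor induced by STAT5, at -1.21 with an SE of 0.26 and a limma adjusted p of 0.036, a call lost without any single array other than Ad-Control 2 (0.0651 to 0.104) or without the detection filter (0.0607); it was at -0.76 with log2 of the deposited signals. Socs3, the feedback inhibitor that STAT3 induces, was at -0.37 (limma adjusted p 0.0675), Stat3 at -0.23 (0.302), Cebpb at -0.06 (0.80), Nfkbia at -0.15 (0.451) and Creb3l3 at -0.25 (0.136). With log2 of the deposited signals Stat3, Socs3, Cebpb, Nfkbia and Il6st lay above 0, at 0.04, 0.01, 0.03, 0.12 and 0.03, but below the median of all probes of 0.20 in that setting. Cebpa at -0.55 (limma adjusted p 0.0699) and Foxa2 at -0.70 (0.0764), liver transcription factor genes, did not pass, and Cebpd was not analysed here.

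Over these 4 lists together, 5 of 57 genes passed, 8.77%, beside 9.9% of all tested probes in either direction, and their median log2 fold change was -0.12.

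**Figure D4:**
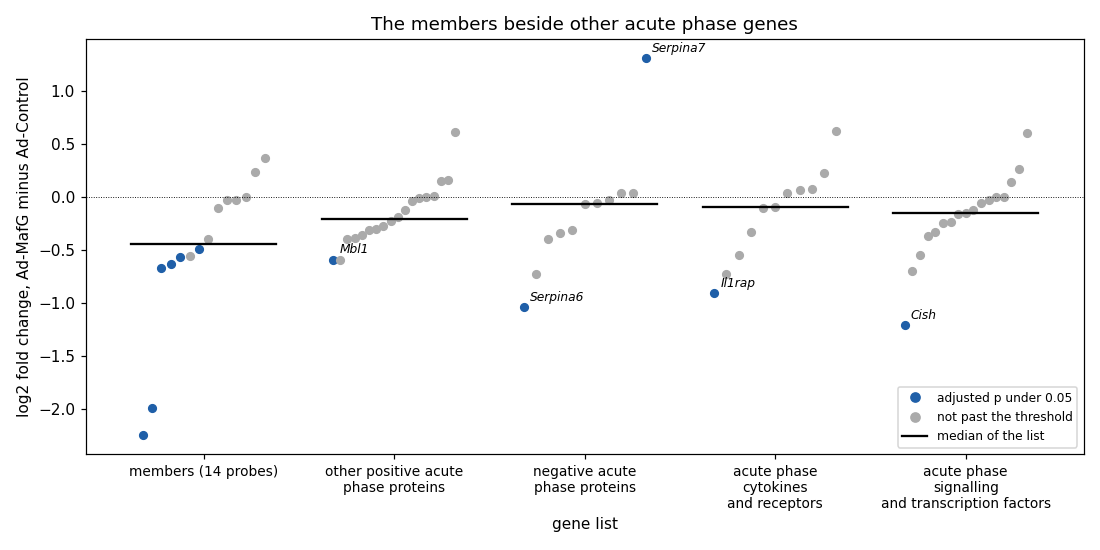
Log2 fold change, Ad-MafG minus Ad-Control (y axis), of the 14 probes and of the tested genes of 4 other acute phase lists (x axis), blue where the adjusted p was under 0.05, with list medians as black lines. The lists hold 5 blue genes of 57, Mbl1, Serpina6, Serpina7, Il1rap and Cish, and every list gene lay above Saa1 and Saa2.

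Receptors and partners of the acute phase proteins held 4 higher and 1 lower of 15 tested genes, beside 5.91% higher and 3.99% lower of all probes, with a median of -0.03. Fpr2, a formyl peptide receptor to which serum amyloid A binds, was 2.02-fold higher, with signals of 1027, 1289.4 and 953.9 in the Ad-Control livers and 2285.4, 2609.5 and 2530.6 in the Ad-MafG livers (limma adjusted p 0.0108, and 0.0504 without Ad-MafG 3). Tlr4 was higher by 1.15 on the log2 scale (limma adjusted p 0.00669). Its signals were low, 168.2 to 188.5 in the Ad-Control livers, where it was detected on 2 of 3 arrays, and 263.7 to 283.7 in the Ad-MafG livers, and the log2 fold change was 0.44 with no background correction. Fcgr1, an Fc receptor that also binds pentraxins, was higher by 1.0 (limma adjusted p 0.0123, lost without Ad-MafG 1 or Ad-MafG 3 at 0.0547 and 0.0529), and by 0.58 with no background correction. C1qa, a subunit of the complement protein to which serum amyloid P component binds, was higher by 0.77 (limma adjusted p 0.0251, lost without Ad-Control 3, Ad-MafG 2 or Ad-MafG 3 at 0.0693 to 0.0924). Cd163, the receptor for haptoglobin bound to haemoglobin, was at -1.24 (limma adjusted p 0.0374, lost without any single array other than Ad-Control 2 at 0.0507 to 0.104, and at 0.0629 without the detection filter); it was at -0.48 with log2 of the deposited signals and was named after its value was seen. Itih1, a heavy chain gene of the same family as Itih4, was at -0.57 (limma adjusted p 0.0505), also named after its value was seen.

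Marker lists of other kinds of liver cell held calls, those of macrophages and of stellate cells and fibroblasts, and the rest held 0. Of 8 Kupffer cell and macrophage markers tested, 3 were higher (Adgre1 by 1.40, C1qc by 1.13 and C1qb by 0.98 on the log2 scale) and 0 lower, beside 5.91% and 3.99% of all probes, with Cd5l not detected. The other 5 did not pass, with Timd4 at -1.48 (limma adjusted p 0.248), Marco at -1.06 (0.0994), Clec4f at 0.27 (0.359), Vsig4 at 0.24 (0.464) and Lyz2 at 0.45 (0.283). Without Ad-MafG 3 Adgre1 was lost (limma adjusted p 0.0504), and C1qb was lost without any single Ad-MafG array (0.0549 to 0.0748). The summed normalized intensity of the 8, to which brighter probes add more, was 13341 to 18036 in Ad-Control and 27077 to 28480 in Ad-MafG. Stellate cell and fibroblast markers numbered 8 tested, of which 4 were higher (Col1a1, Col3a1, Lum and, by at least 1.61-fold, Col1a2, which was not above background in Ad-Control) and 0 lower, with sums of 11825 to 14361 against 14428 to 16354. The other 4 did not pass, among them Lrat at 0.31 (limma adjusted p 0.184), Dcn at 0.17 (0.354) and Reln at -0.05 (0.895). Col1a2 was detected on 0 Ad-Control and 3 Ad-MafG arrays. It thus entered the test only through the group where it was higher, and its call is not separate support. Col1a2 no longer passed the detection filter when any single Ad-MafG array was left out. That list held 0 calls without Ad-MafG 2 or Ad-MafG 3, and 1 to 3 without any other array. With no background correction Col1a1, Col1a2 and Col3a1 were at 0.73, 0.46 and 0.62, and with median scaling C1qb was at 0.63. The 5 sinusoidal endothelial markers had 0 calls and sums of 9440 to 10713 against 11428 to 13228, of which Clec4g, the brightest, made the largest part. Lyve1 was at 1.05 (limma adjusted p 0.0537) and passed in 6 of the 18 alternatives. Clec4g was at 0.25 (limma adjusted p 0.222), Pecam1 at 0.18 (0.541), Stab2 at 0.02 (0.966) and Stab1 at -0.10 (0.68). The 4 T and NK cell markers had 0 calls and sums of 691 to 1699, highest in Ad-Control 2, against 1295 to 1373. Cd3e was at 0.46 (limma adjusted p 0.248), Nkg7 at 0.42 (0.362), Cd3g at 0.37 (0.428) and Cd3d at 0.21 (0.723). With 1 array left out the calls of this list ran from 0 to 3.

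Neutrophils, a further source of lipocalin 2, had 4 of 13 markers tested, 0 called and a median log2 fold change of 0.13. Their summed intensity was 827 to 1342 in Ad-Control, highest in Ad-Control 2, and 1368 to 1507 in Ad-MafG, while Mpo, Elane, Ngp, Mmp8 and Cxcr2 were not detected on any array. S100a8, the brightest of the 4 on every array and so the largest part of that sum, was at 0.79 (limma adjusted p 0.0534). Csf3r was at 0.22 (limma adjusted p 0.212), S100a9 at 0.05 (0.913) and Camp at -0.20 (0.537). The defining adipocyte markers Adipoq, Plin1, Retn, Lep and Fabp4 were not detected on any array. The B cell and cholangiocyte lists had 1 tested gene each and 0 calls, Cd79b at -0.08 (limma adjusted p 0.798) and Sox9 at -0.13 (0.763). The part of all these cells in the values of Saa3, Lcn2, Fpr2, Tlr4, Fcgr1, C1qa and Cd163 was not tested.

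Hepatocyte markers, which bear on the labelled tissue, were present. Of 11 tested 0 were called, the median log2 fold change was -0.06 beside -0.03 over all probes, and 9 of the 11 were below 0. Summed intensity was 243815 to 256630 in Ad-Control and 226946 to 246074 in Ad-MafG. Hnf4a was at -0.33 (limma adjusted p 0.133), Cps1 at -0.24 (0.233), Ass1 at -0.40 (0.241) and Alb at -0.34 (0.477). Over the alternatives 0 to 7 of the list were called, and 0 with any array left out. Apoa1, Apoa2, Ttr, Cyp2e1 and Serpina1c ranked between the 4th and the 32nd brightest on every array, and whether the scanner limits them was not tested. The Alb and Tat probes gave signals of 196.2 to 245.1 and 182.7 to 239.2, near the array medians of 160.6 to 185.8. The part of hepatocyte share in the values of Saa1 and Saa2 was not tested.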

How the data were processed

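The authors deposited a table of non-normalized mean bead intensity per probe and array with a detection p-value (per the file headers, the chance that background alone gives such a signal). A second deposited table held intensity scaled by the authors, which was a straight line of the first on each array, with factors of 0.872 to 1.195, medians of 34.2 to 46.0 and 1272 to 6904 negative values; how they scaled it is not stated in the labels. Their last table held the authors' group means with a score of their difference, per the file headers; the spread over arrays that the authors deposited beside it, in units of signal, was not used.

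From the first table, limma 3.58.1 in R 4.3.3 removed background (normexp, with parameters from the detection p-values), added 16 to each value, quantile normalized the arrays and took log2. For probes near background, removing it enlarges the log2 fold change. The 12893 of 25697 probes detected (p under 0.05) on 3 or more of the 6 arrays entered the test, and the groups were compared probe by probe with lmFit and eBayes, two-sided, with Benjamini-Hochberg adjustment over all of them and a threshold of 0.05. Groups came from the sample labels, and each sample is a separate mouse. Median signals were 160.6 to 185.8, 12079 to 13042 probes were detected per array, and arrays correlated at 0.957 to 0.992; the number of arrays limits the precision. Probes took their gene from the platform annotation (23978 with 1 symbol, 0 with several, 1719 with none), and in lists the brightest tested probe stood for a gene.

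The genes, lists and tests were chosen with earlier results of these data known. Named were every member probe, up to 4 tested genes per list with the smallest unadjusted p, a fixed set of signalling genes and the 5 probes most like Saa1. Further genes of the lists, Cd163 and Itih1 among them, were named after their values were seen. Alternatives covered background, offset, scaling, the detection filter, variance estimation, array weights, a replicate block, 1 probe a gene and leaving out each array. Same-numbered arrays of the groups did not deviate together (correlations of 0.04, -0.13 and -0.12). The fit was checked on simulated data. Upstream sequences are from RefSeq on GRCm38.p6; the array files name no build.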

Additional observations from a re-analysis of the deposited data

How the results depend on the processing

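Saa1 kept its call in all 18 alternatives and Saa2 in 13, and 0 member probes were higher in any. The count of all probes called, 1276 as reported, was 112 with the replicate block, 1960 with median scaling, 3269 with log2 of the deposited signal, 840 without the detection filter and 81 (without Ad-MafG 3) to 1707 (without Ad-Control 2) with an array left out. No other setting moved it by more than 1.5 times. The count of member probes, 6 as reported, was 12 with median scaling, 1 with the replicate block and 1 to 4 with an array left out (2 without Ad-MafG 3, 4 without Ad-Control 2, 1 without any other). Under the block, whose numbers the data do not show to pair the samples, the adjusted p of Saa2 was 0.0643. The 4 other acute phase lists, with 5 calls as reported, had 11 with no background correction, 8 with an offset of 50, 27 with median scaling, 11 with log2 of the deposited signal, 15 with trend and robust moderation, 1 with the replicate block and 0 (without Ad-MafG 3) to 8 (without Ad-Control 2) with an array left out. Calls among receptors and partners ran from 1 to 9 over the alternatives, among macrophage markers from 1 to 5 and among stellate cell markers from 0 to 5. They ran from 0 to 7 among hepatocyte markers, 0 to 3 among T and NK cell markers, 0 to 2 among sinusoidal endothelial markers and 0 to 1 among neutrophil markers. Signs turned in 32 fits of single probes, 0 of them of Saa1, Saa2, Saa3, Saa4, Apcs or Itih4. With median scaling Orm2 was at -0.26, the second Hp probe at -0.65, Lcn2 at -0.17, Clec4g at -0.14 and Cd79b at 0.0012. The second Hp probe was at -0.037 with cyclic loess, -0.28 in the authors' scaled values and -0.018 with log2 of the deposited signal. In that last setting the third Hp probe was at 0.0064, Alb at 0.047, Camp at 0.062, Cd79b at 0.17, Cebpb at 0.032, Il6st at 0.027, Nfkbia at 0.12, Socs3 at 0.0050, Sox9 at 0.13, Stab1 at 0.22 and Stat3 at 0.042. With array weights Cebpb was at 0.016. With an array left out the second Hp probe ran from -0.020 to 0.017, Cd79b from -0.20 to 0.078, S100a9 from -0.10 to 0.31, Sox9 from -0.26 to 0.10, Cd3d from -0.18 to 0.61, Cebpb from -0.18 to 0.0071 and Pecam1 from -0.014 to 0.32. The cause of these shifts was not tested; leaving out an array also leaves fewer samples. The difference between Saa1 or Saa2 and the other members changed sign in 0 of the alternatives run.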
